A study of Mus musculus with 12 samples.

Results

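The genes described here encode the core machinery that copies DNA. The set was chosen by name and holds 43 of the 51467 genes in the deposited table: the origin recognition subunits and the loader Cdc6, the replicative helicase and its activators, the replicative polymerases with primase, the clamp and its loader, the single-strand binding complex RPA, the lagging-strand enzymes Fen1 and Lig1, and 3 enzymes that supply deoxynucleotides. All 43 passed the filter on low counts (3 or more CPM, read counts put on a common library size, in 3 or more libraries), which left 14731 genes for testing. Mouse embryonic stem cells (ESCs) were grown in 15% fetal bovine serum with LIF and the 2i inhibitors PD0325901 and CHIR99021, which hold them in the naive state. Epiblast-like cells (EpiLCs) came from plated ESCs from which LIF and 2i were removed 24 h after plating, and they were collected about 56 h after the removal. In both cell types 4-thiouridine (4sU) was given at 500 µM for 30 min before lysis, so that RNA made during the pulse could be biotinylated and captured. The captured RNA (4sU libraries, nascent RNA) and the unselected RNA depleted of ribosomal RNA (total libraries) were sequenced in 3 libraries each per cell type, 12 in all. The study's methods name the starting cells as a V6.5 ESC line with fluorescent reporters for a pair of microRNA clusters, so 1 line stands for each state. The study calls its replicates biological, while the labels do not say that the 3 libraries of a group came from separate cultures, and the p-values measure the spread between these libraries.

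Replication starts at origins bound by the origin recognition complex, which with Cdc6 and Cdt1 loads the MCM2-7 ring onto DNA. Cdc45 and GINS join the ring to form the active helicase, primase and polymerase alpha lay down primers, and polymerases delta and epsilon extend them on the sliding clamp PCNA, which the RFC complex loads. Many of these genes are targets of the E2F transcription factors and are transcribed most around the start of S phase, and ESCs are known for a short G1 phase and a large share of cells in S phase.

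Summed gene counts ran from 3097693 to 5385644 per 4sU library and from 9300845 to 21975684 per total library. The lowest count of any replication gene was 34 reads in a 4sU library and 274 in a total library. The ESC replicate 3 libraries stood apart from the other ESC libraries: across all genes tested, its total library had a Spearman correlation of 0.985 with either of the others, which correlated at 0.998, and its 4sU library one of at most 0.976, against 0.988 between the others. The labelled states were seen in their markers, since 10 of 10 naive genes were lower and 6 of 7 primed genes higher in EpiLC total RNA. The 4 general pluripotency genes listed did not move together in total RNA. Sox2 (log2 fold change −3.55) and Pou5f1 (−0.77) were lower, Lin28a (1.80) was higher and Sall4 (0.05) did not pass. In total RNA markers of other cell types stayed low beside most replication genes. The 10 fibroblast genes summed to 11.4 to 15.7 CPM in ESC and 16.9 to 22.1 CPM in EpiLC libraries. The 7 primitive endoderm genes summed to 5.12 to 12.1 and 18.7 to 21.4 CPM, and the 4 mesendoderm genes to 17.2 to 28.2 and 20.3 to 31.1 CPM. In 4sU libraries the fibroblast sums were 7.91 to 10.1 CPM in ESC and 7.16 to 8.31 CPM in EpiLC. There primitive endoderm genes summed to 14.6 to 16.6 and 31.3 to 42.6 CPM, and mesendoderm genes to 21.0 to 28.4 and 43.5 to 96.6 CPM. The mesendoderm gene Eomes alone was at 66.8, 28.1 and 36.4 CPM in EpiLC 4sU libraries. That was above some replication genes, among them Prim1 (20.6, 24.1 and 20.3 CPM). Of the fibroblast genes, Postn was at 0 in 11 of 12 libraries. Dcn was at 0 in all ESC libraries and at 4.49, 5.33 and 4.70 CPM in EpiLC total libraries. Col1a2 was at 0.101 to 0.198 CPM in ESC and at 5.05, 4.10 and 3.70 CPM in EpiLC total libraries. Pdgfrb went the other way, from 7.45, 7.03 and 11.3 CPM in ESC to 1.91, 2.48 and 1.70 CPM in EpiLC total libraries. In total RNA 2 fibroblast genes passed as higher and 1 as lower among the 4 tested, 2 and 1 among 4 primitive endoderm genes, and 2 and 0 among 3 mesendoderm genes, and their part in the results was not tested. The spike-in entries had 0 reads, so every level is relative to the other RNA in its library.

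E2F factors are the regulators these genes are best known to share, so promoters were searched for their motif. RefSeq windows (GRCm38.p6) from 250 bases before to 50 bases after an annotated start were found for 36 of the 43 genes, 44 windows in all. An E2F-type motif of 8 letters, TTTGGCGC, TTTCCCGC, TTTCGCGC or TTTGCCGC on either strand, was present in the windows of 15 of these 36 genes (41.7%). The same letters were present in 4.98% of the 10114 tested genes with a window and in 2.60% of all 27025 genes with one. By window, the shares were 34.1% of 44, 4.11% of the 12962 windows of tested genes and 2.26% of all 32851. The CCAAT box, searched as CCAAT on either strand, was in the windows of 24 of the 36 genes (66.7%), against 43.7% of tested genes with a window. A match describes the letters only and does not show that a factor binds there. Matching windows of 6 genes, read 5′ to 3′ on the gene's strand with the E2F-type letters in capitals, are given for Orc1, which had the largest fall, for Rfc3, the gene that rose, and for the 4 MCM2-7 genes with a match.
Orc1 (chr4:108579204-108579503, + strand): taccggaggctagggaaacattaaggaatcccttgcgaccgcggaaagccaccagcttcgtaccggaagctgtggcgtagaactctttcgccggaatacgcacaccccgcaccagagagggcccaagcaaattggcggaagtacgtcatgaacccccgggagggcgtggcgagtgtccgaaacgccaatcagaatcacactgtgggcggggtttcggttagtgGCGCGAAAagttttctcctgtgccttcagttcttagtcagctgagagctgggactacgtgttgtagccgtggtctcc
Mcm3 (chr1:20820263-20820562, - strand): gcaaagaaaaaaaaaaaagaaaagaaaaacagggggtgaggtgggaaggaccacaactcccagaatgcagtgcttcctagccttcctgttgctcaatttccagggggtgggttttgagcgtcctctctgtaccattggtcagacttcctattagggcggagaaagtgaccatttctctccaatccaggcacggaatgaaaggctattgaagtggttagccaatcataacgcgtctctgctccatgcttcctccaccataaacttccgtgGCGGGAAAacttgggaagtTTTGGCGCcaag
Mcm5 (chr8:75109259-75109558, + strand): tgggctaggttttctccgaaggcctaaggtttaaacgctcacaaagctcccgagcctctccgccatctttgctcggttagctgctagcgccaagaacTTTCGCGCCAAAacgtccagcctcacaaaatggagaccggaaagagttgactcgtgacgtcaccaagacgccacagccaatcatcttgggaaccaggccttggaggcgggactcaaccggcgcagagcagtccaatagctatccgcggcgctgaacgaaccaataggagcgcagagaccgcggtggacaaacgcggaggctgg
Mcm6 (chr1:128359656-128359955, - strand): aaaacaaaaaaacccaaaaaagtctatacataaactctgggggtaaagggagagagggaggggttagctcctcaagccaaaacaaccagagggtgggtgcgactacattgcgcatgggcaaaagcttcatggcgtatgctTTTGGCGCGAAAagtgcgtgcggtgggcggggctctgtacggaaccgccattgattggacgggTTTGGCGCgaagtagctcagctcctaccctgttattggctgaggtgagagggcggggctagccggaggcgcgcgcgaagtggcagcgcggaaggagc
Mcm7 (chr5:138171834-138172133, - strand): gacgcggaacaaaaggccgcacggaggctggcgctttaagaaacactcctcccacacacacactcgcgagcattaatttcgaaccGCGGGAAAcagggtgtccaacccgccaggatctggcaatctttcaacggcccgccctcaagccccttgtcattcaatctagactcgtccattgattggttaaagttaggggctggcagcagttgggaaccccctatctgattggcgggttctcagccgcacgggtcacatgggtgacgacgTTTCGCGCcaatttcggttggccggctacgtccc
Rfc3 (chr5:151651159-151651458, - strand): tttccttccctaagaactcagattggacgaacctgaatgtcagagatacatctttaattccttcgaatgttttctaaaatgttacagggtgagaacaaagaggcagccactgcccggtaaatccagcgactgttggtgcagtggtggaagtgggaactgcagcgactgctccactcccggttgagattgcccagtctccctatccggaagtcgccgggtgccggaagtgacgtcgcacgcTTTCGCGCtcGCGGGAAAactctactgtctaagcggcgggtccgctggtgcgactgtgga
In Orc1 the match began 27 bases before the start, and in Rfc3 the matches began 10 bases before the start and at the start itself, separated by a pair of bases. In Mcm6 and Mcm5, matches on the opposite strands overlapped, which gives the longer run of capitals. Among the 15 genes with a match 9 fell in total RNA and 9 in nascent RNA, and among the 21 with a window and no match 14 and 8 did. Of the 7 genes with no window, 7 and 4 did. Over all genes tested, 32.1% fell in total and 28.8% in nascent RNA. Median log2 fold changes in total RNA were −0.43 with and −0.29 without a match. In nascent RNA they were −0.40 and −0.20, and the differences were not tested.

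Total RNA of the replication genes was lower in EpiLCs than in ESCs, with genes from every functional group of the set among those that fell. At an adjusted p under 0.05 (limma-voom, all 12 libraries in one fit, Benjamini-Hochberg over all genes tested), 30 of the 43 genes were lower, 1 was higher and 12 did not pass. Over all genes tested, 32.1% were lower and 31.4% higher by the same rule. The falls were modest in size. The median log2 fold change was −0.34, against 0.02 over all genes tested, the range was −1.15 to 0.22, and 1 gene, Orc1, fell by more than 1 on the log2 scale, a size reached by 11.2% of all genes tested. In 30 genes every EpiLC total library lay below every ESC total library, which held for 35.1% of all genes tested, and in 1 gene every EpiLC library lay above, which held for 33.5%. These 30 are not the same genes as the 30 that passed: Orc3 and Cdc6 had no overlap and did not pass, while Rfc5 and Tyms passed with libraries that overlapped. The 43 genes together summed to 11614, 11532 and 10968 CPM in the 3 ESC total libraries and to 8184, 8647 and 8648 CPM in the 3 EpiLC total libraries. In bulk RNA, fewer cells in S phase and less RNA per cell cannot be told apart. Without both ESC replicate 3 libraries, 37 genes were lower and 1 higher (36.7% and 36.2% of all genes tested), and with library totals as the only scaling 25 were lower and 1 higher (27.8% and 35.7%). Of the 31 calls, 25 held with each of the 12 libraries left out in turn, and Mcm7, Pold2, Rfc3, Rfc5, Rpa3 and Tyms did not.

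**Figure D1:**
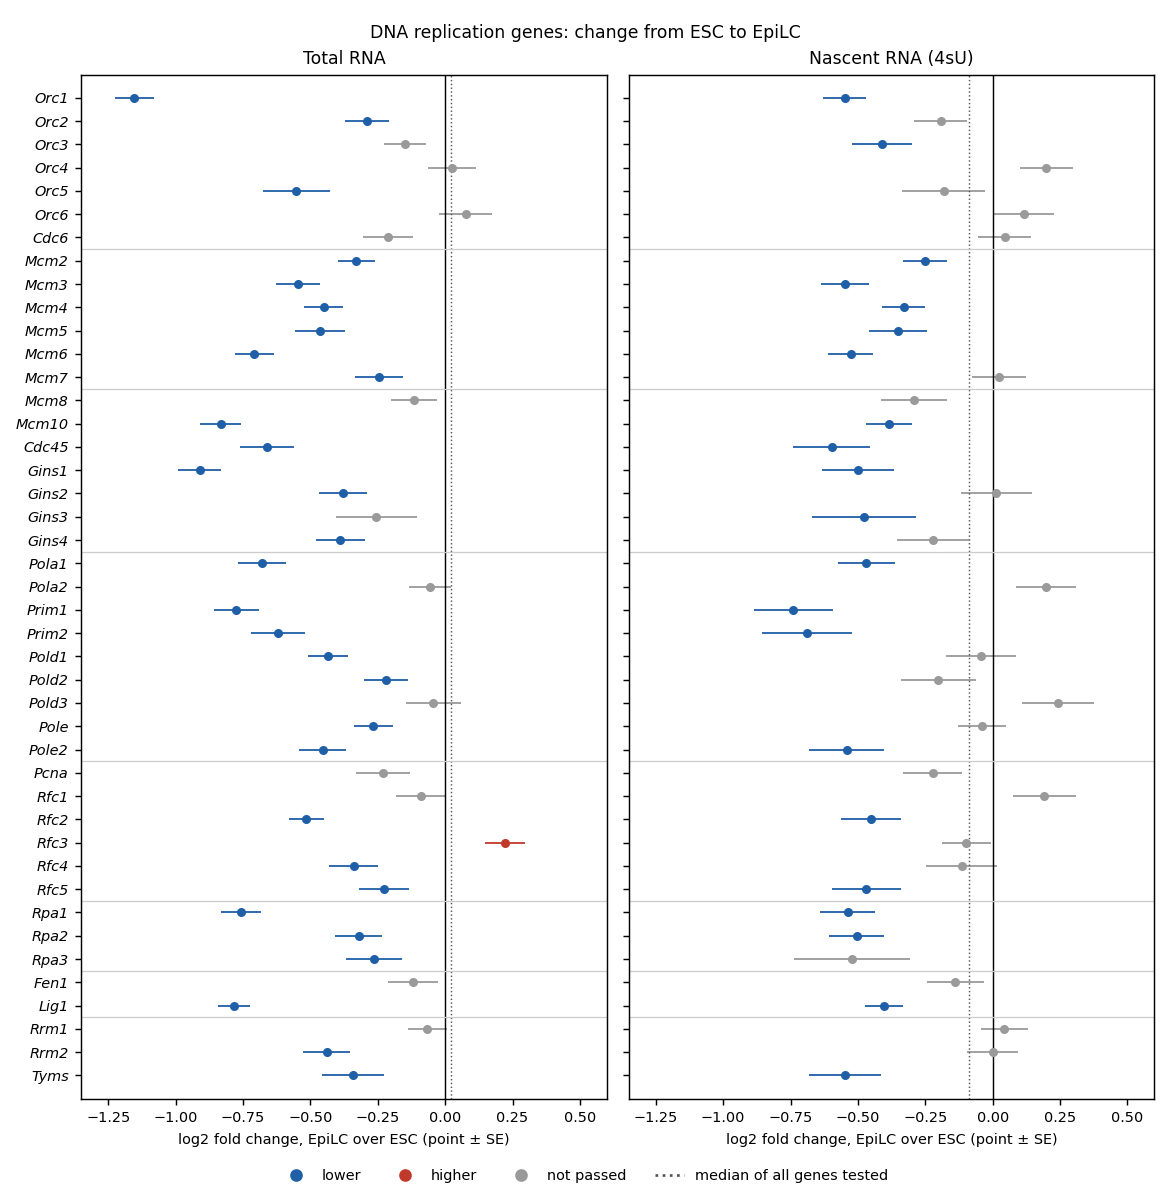
Log2 fold change of each of the 43 genes from ESC to EpiLC in total RNA (left) and nascent RNA (right), with the SE of the limma-voom fit and 3 libraries per group. Rows are grouped by role, colour gives the result at an adjusted p under 0.05, and dotted lines mark the medians of all genes tested. In total RNA 30 genes are lower and 1 is higher, and in nascent RNA 21 are lower and none higher.

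Nascent RNA of the same genes was also lower, in fewer of them. In the 4sU libraries 21 of the 43 genes were lower, 0 were higher and 22 did not pass, against 28.8% of all genes tested lower and 23.7% higher (limma-voom). At an unadjusted p under 0.05 the counts were 23 lower and 0 higher, and the share over all genes was not taken at that threshold. By adjusted p edgeR found 23 lower and 0 higher, against 31.2% and 24.0% of all genes tested. DESeq2 found 22 lower and 1 higher (Orc4), against 27.4% and 25.8%. The median nascent log2 fold change was −0.29, against −0.09 over all genes tested, and no gene of the set changed by more than 1, a size that 13.5% of all genes tested reached downwards and 11.9% upwards. Every EpiLC 4sU library lay below every ESC 4sU library in 21 genes (34.1% of all genes tested) and above in 1 gene, Pola2 (26.6% of all genes tested). Of the 30 genes lower in total RNA, 19 were also lower in nascent RNA, and Orc3 and Gins3 passed in nascent RNA and not in total RNA. The nascent call of Gins3 (adjusted p 0.0499) held in 3 of 12 fits with a library left out, those without ESC 4sU replicate 1, ESC total replicate 1 or ESC total replicate 3, and its adjusted p ran up to 0.221 in the others. Mcm2 (adjusted p 0.107) and Mcm5 (adjusted p 0.0561) did not pass without EpiLC 4sU replicate 3, nor did Gins3 and Mcm2 with TMM within each assay, median-of-ratios scaling or no expression filter. The other 18 calls held in all 12 fits. Of these, Orc3, Rfc2 and Rfc5 did not pass with no expression filter (adjusted p 0.0868, 0.0671 and 0.0968). Gins3 was also lost on library totals, and 15 of the 21 calls held in every alternative. The 4sU libraries were shallower, and the SE of a nascent log2 fold change ran up to 0.21, in Rpa3. Without both ESC replicate 3 libraries, 26 genes were lower, against 33.5% of all genes tested.

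**Figure D2:**
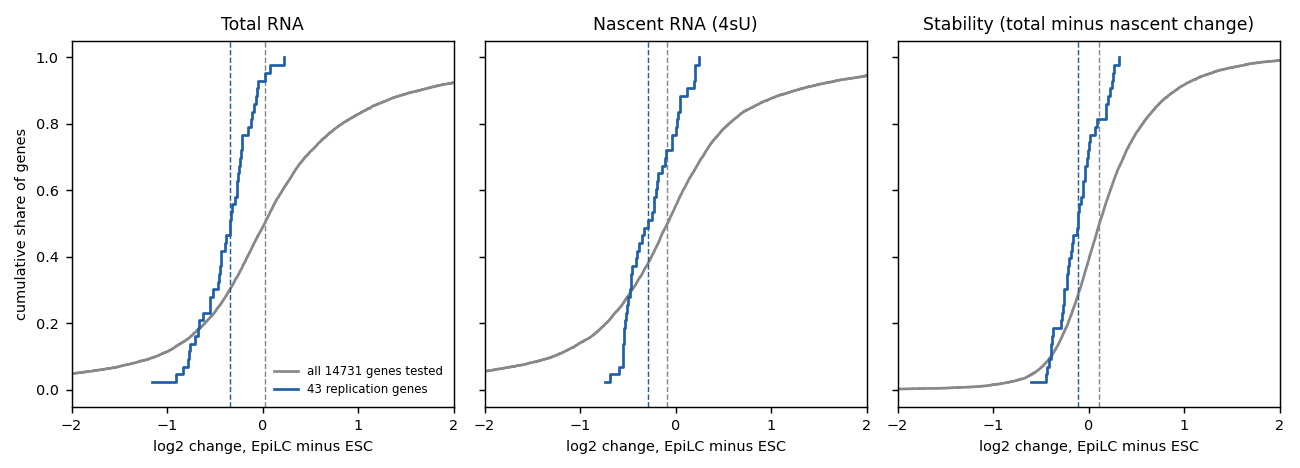
Cumulative share of genes (vertical axis) against the log2 change from ESC to EpiLC (horizontal axis) for the 43 replication genes (blue) and all 14731 genes tested (grey), with dashed lines at the medians. The blue medians lie left of the grey medians in all 3 panels, with values of −0.34, −0.29 and −0.11 against 0.02, −0.09 and 0.11, and the blue curves span a narrower range than the grey ones.

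The origin recognition complex moved unevenly. Orc1 (ENSMUSG00000028587; mm10 chr4:108579454-108614833, + strand), the largest subunit and an ATPase, had 181, 189 and 173 CPM in ESC total libraries and 79.0, 80.2 and 85.3 CPM in EpiLC total libraries. Every EpiLC library lay far below every ESC library. The log2 fold change was −1.15 ± 0.07 (SE, adjusted p 5.47e-09). Nascent Orc1 RNA was at 169, 170 and 151 CPM in ESC and 109, 114 and 112 CPM in EpiLC 4sU libraries, a fold change of −0.55 ± 0.08 (adjusted p 5.32e-05). Orc2 (−0.29 ± 0.08) and Orc5 (−0.55 ± 0.12) were also lower in total RNA. The other 3 subunits did not pass in total RNA, with log2 fold changes of −0.15 ± 0.08 for Orc3, 0.03 ± 0.09 for Orc4 and 0.08 ± 0.10 for Orc6. Cdc6, the ATPase that recruits the helicase to the complex, was at −0.21 ± 0.09 (adjusted p 0.0576), although its EpiLC libraries (101, 101 and 107 CPM) lay below its ESC libraries (122, 123 and 113 CPM).

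The 6 subunits of the MCM2-7 helicase, the ring that unwinds DNA at the fork, all fell in total RNA, and none of their total libraries overlapped between cell types, although Mcm7 did not pass on library totals alone (adjusted p 0.0974) or without ESC total replicate 1 or 2 or any one EpiLC total replicate (highest adjusted p 0.0839). Mcm6 fell most, with 857, 837 and 789 CPM in ESC and 481, 523 and 516 CPM in EpiLC total libraries (−0.71 ± 0.07, adjusted p 7.7e-07). Mcm3 followed at −0.55 ± 0.08, then Mcm5 at −0.46 ± 0.09, Mcm4 at −0.45 ± 0.07, Mcm2 at −0.33 ± 0.07 and Mcm7 at −0.25 ± 0.09. In nascent RNA 5 of the 6 fell, with the limit given for Mcm2 and Mcm5. Mcm7 was the exception, with 250, 314 and 338 CPM in ESC and 326, 298 and 285 CPM in EpiLC 4sU libraries, groups that overlapped (0.02 ± 0.10, adjusted p 0.862). Mcm7 shares its locus with a microRNA cluster in one of its introns, whereas the values here come from exons. Summed over the 6 genes, levels were 4185 to 4362 CPM in ESC and 2957 to 3147 CPM in EpiLC total libraries.

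Factors that activate the helicase also fell in total RNA, apart from Gins3. Gins1, a subunit of the 4-part GINS complex (ENSMUSG00000027454; chr2:150909594-150931280, + strand), had 76.4, 81.7 and 85.7 CPM in ESC and 43.8, 42.8 and 42.6 CPM in EpiLC total libraries. That was the second largest fall of the set, and the groups did not overlap (−0.91 ± 0.08, adjusted p 1.36e-07). Its nascent RNA was at 29.2, 25.4 and 25.1 CPM in ESC and 18.5, 17.5 and 20.9 CPM in EpiLC (−0.50 ± 0.13, adjusted p 0.00629). The partners Gins2 (−0.38 ± 0.09) and Gins4 (−0.39 ± 0.09) fell in total RNA, and Gins3 was at −0.26 ± 0.15 with overlapping libraries. Mcm10 (ENSMUSG00000026669; chr2:4989714-5012791, − strand), which is needed for the loaded helicase to start unwinding, had 371, 383 and 348 CPM in ESC and 198, 214 and 207 CPM in EpiLC total libraries. Those libraries did not overlap (−0.83 ± 0.08, adjusted p 2.27e-07). In 4sU libraries Mcm10 was at 197, 228 and 187 CPM in ESC and 158, 157 and 154 CPM in EpiLC (−0.38 ± 0.09, adjusted p 0.00177). Cdc45 (ENSMUSG00000000028; chr16:18780447-18811972, − strand), which joins the ring together with GINS, had 106, 115 and 110 CPM in ESC and 73.8, 71.1 and 64.3 CPM in EpiLC total libraries (−0.66 ± 0.10, adjusted p 3.78e-05). Its nascent RNA fell by a like amount, from 55.7, 54.8 and 45.5 CPM to 37.2, 39.4 and 26.5 CPM (−0.60 ± 0.14, adjusted p 0.00283). Mcm8, an MCM relative outside the ring, was at −0.12 ± 0.08 in total and −0.29 ± 0.12 in nascent RNA, and passed in neither.

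Among the polymerases, polymerase alpha-primase, which makes the RNA-DNA primers, held the largest nascent falls of the set. Prim1 (ENSMUSG00000025395; chr10:128015168-128030037, + strand), the catalytic primase subunit, had 142, 152 and 162 CPM in ESC and 80.7, 93.5 and 91.4 CPM in EpiLC total libraries (−0.77 ± 0.08, adjusted p 1.63e-06). Its nascent RNA went from 32.5, 39.2 and 37.9 CPM to 20.6, 24.1 and 20.3 CPM (−0.74 ± 0.15, adjusted p 0.000701). Both assays gave nearly the same fall, with no overlap in either. Prim2 (ENSMUSG00000026134; chr1:33453810-33669795, − strand), the large primase subunit, had 94.9, 99.5 and 81.7 CPM in ESC and 53.8, 64.5 and 61.6 CPM in EpiLC total libraries (−0.62 ± 0.10, adjusted p 7.53e-05), and 34.1, 33.4 and 33.2 against 17.5, 20.4 and 26.2 CPM in 4sU libraries (−0.69 ± 0.17, adjusted p 0.00319). The catalytic polymerase subunit Pola1 fell as well (−0.68 ± 0.09 in total and −0.47 ± 0.11 in nascent RNA). The accessory subunit Pola2 went another way in nascent RNA, where its EpiLC libraries (53.3, 47.7 and 48.6 CPM) all lay above its ESC libraries (42.9, 43.2 and 44.4 CPM), a change that did not pass (0.20 ± 0.11, adjusted p 0.146), and its total RNA was at −0.06 ± 0.08.

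Polymerases delta and epsilon, which extend the primers, were lower in part. For polymerase delta, total RNA of the catalytic subunit Pold1 (−0.43 ± 0.07) and of Pold2 (−0.22 ± 0.08) was lower, and Pold3 was at −0.04 ± 0.10. Pold2 did not pass with edgeR, on library totals, or without ESC total replicate 1 or 2 or any one EpiLC total replicate (adjusted p up to 0.141). None of the 3 passed in nascent RNA, with Pold1 at −0.04 ± 0.13. For polymerase epsilon, Pole (−0.27 ± 0.07) and Pole2 (−0.45 ± 0.09) were lower in total RNA, and Pole2 also in nascent RNA (−0.54 ± 0.14). Part of the Pole2 exon sequence (14.4%) is shared with a gene model on the same strand, and reads there cannot be assigned to one gene. Smaller parts of Orc5 (4.28%) and Rpa1 (0.856%) exons are shared in the same way.

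The clamp loader held the one rise. Rfc3 (ENSMUSG00000033970; chr5:151642756-151651242, − strand), a small subunit of the RFC complex, had 72.3, 72.7 and 67.5 CPM in ESC and 81.2, 85.3 and 81.6 CPM in EpiLC total libraries. The groups did not overlap, and the rise was small (0.22 ± 0.08, adjusted p 0.0189). It did not pass when EpiLC total replicate 2 was left out (0.20, adjusted p 0.0698) or when no expression filter was used (0.15, adjusted p 0.192). Nascent Rfc3 RNA was at 70.9, 76.8 and 85.3 CPM in ESC and 74.1, 70.5 and 71.6 CPM in EpiLC, which overlapped (−0.10 ± 0.09, adjusted p 0.381). Its partners Rfc2 (−0.51 ± 0.07), Rfc4 (−0.34 ± 0.09) and Rfc5 (−0.23 ± 0.09) were lower in total RNA, and the large subunit Rfc1 was at −0.09 ± 0.09. The total call of Rfc5 (adjusted p 0.0438) was lost without ESC total replicate 1 or 2 or any one of the EpiLC libraries, with edgeR, on library totals and with TMM within each assay (adjusted p up to 0.189). Pcna, the clamp itself, was at −0.23 ± 0.10 (adjusted p 0.0565), with 270, 270 and 212 CPM in ESC and 205, 219 and 216 CPM in EpiLC total libraries. ESC replicate 3 was the library of its group that overlapped the EpiLC libraries, and Pcna passed without both ESC replicate 3 libraries. Pcna and Tyms have named pseudogenes in the mouse, so their uniquely mapped counts are uncertain. Only pseudogenes that carry the name of a gene of the set were looked for, so others of the set may also have close copies.

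RPA, which coats exposed single strands, fell in all 3 subunits. The total call of Rpa3 (adjusted p 0.0403) was lost with edgeR, DESeq2, library totals alone and the replicate number as a block, and without ESC total replicate 1, any one EpiLC 4sU replicate, or EpiLC total replicate 2 or 3 (highest adjusted p 0.174). Rpa1, the large subunit, had 658, 637 and 592 CPM in ESC and 349, 388 and 379 CPM in EpiLC total libraries (−0.76 ± 0.08, adjusted p 5.85e-07), the largest fall of the complex, against −0.32 ± 0.09 for Rpa2 and −0.26 ± 0.11 for Rpa3. On the lagging strand, the ligase that seals Okazaki fragments fell while the flap endonuclease did not pass. Lig1 (ENSMUSG00000056394; chr7:13277313-13311425, + strand) had 415, 414 and 431 CPM in ESC and 248, 241 and 242 CPM in EpiLC total libraries, groups with a wide gap (−0.78 ± 0.06, adjusted p 4.28e-08). Its nascent RNA was at 175, 171 and 187 CPM in ESC and 135, 131 and 136 CPM in EpiLC (−0.40 ± 0.07, adjusted p 0.00027). Fen1 was at −0.12 ± 0.09 in total RNA. Of the nucleotide enzymes, Rrm2, the regulated subunit of ribonucleotide reductase, fell in total RNA (−0.44 ± 0.09) and was flat in nascent RNA (0.00 ± 0.09), and its partner Rrm1 was at −0.07 ± 0.07. Tyms, which makes thymidylate, fell in total (−0.34 ± 0.11) and nascent RNA (−0.55 ± 0.13). Its total call was lost on library totals (adjusted p 0.0544) and without ESC total replicate 1 or 2 or EpiLC total replicate 1 or 3 (highest adjusted p 0.0772).

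**Figure D3:**
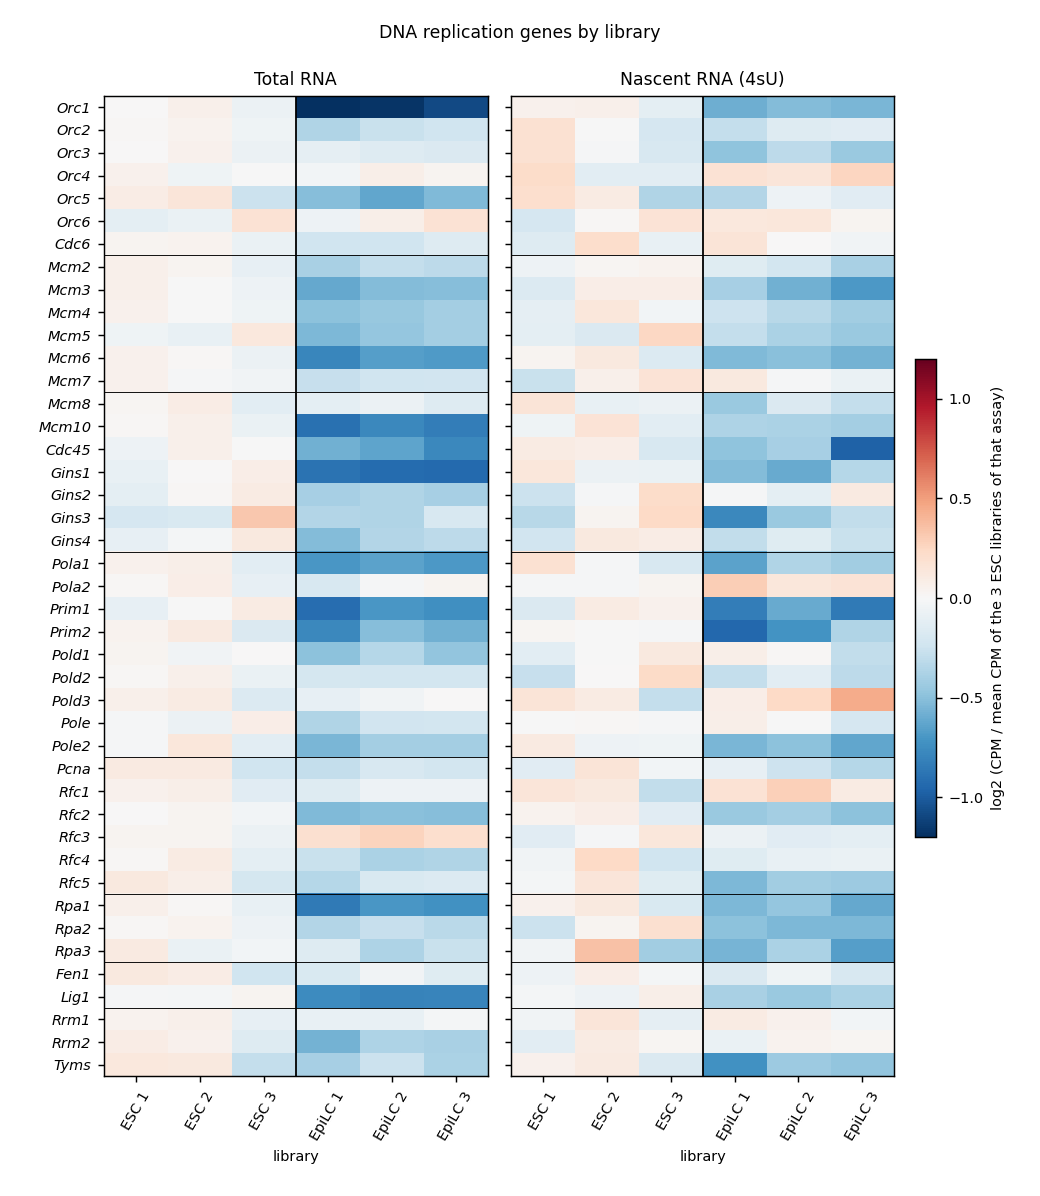
Each library's level of each gene, as log2 of its CPM over the mean CPM of the 3 ESC libraries of the same assay (blue lower, red higher), with rows in the order of role and columns by cell type and replicate. In total RNA the EpiLC columns are blue for most genes and darkest for Orc1, while Rfc3 is red in all 3, and in 4sU libraries the EpiLC columns are pale red for Orc4, Pola2, Pold3 and Rfc1, none of which passed.

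Level per kilobase of exon (RPKM) placed the helicase at the top. The length used covers all annotated exons of a gene, whether or not these cells use them, so comparisons between genes are rough. In ESC total RNA the highest were Mcm5 at 258 ± 21.3 (SD, n = 3), Mcm3 at 230 ± 10.3 and Mcm2 at 228 ± 12.9 RPKM, and these 3 lay within their spread of each other. The lowest were Mcm8 at 19.0 ± 1.40, Orc4 at 18.8 ± 0.683 and Gins3 at 14.5 ± 3.11 RPKM, of which Mcm8 and Orc4 did not differ beyond their spread. In EpiLC total RNA the highest were Mcm5 (186 ± 8.20), Mcm2 (182 ± 6.43) and Mcm3 (158 ± 5.99), and the lowest were Gins2 (17.7 ± 0.286), Mcm8 (17.5 ± 0.477) and Gins3 (11.8 ± 0.793). There Mcm5 and Mcm2, and likewise Gins2 and Mcm8, did not differ beyond their spread. By this measure, levels within a complex differed between subunits. The 6 MCM2-7 genes lay within 1.61-fold of each other in both cell types, whereas the 6 origin recognition genes spanned 5.33-fold in ESC and 5.49-fold in EpiLC total RNA, from Orc4 to Orc6. The 4 GINS genes spanned 6.77-fold in ESC and 6.33-fold in EpiLC, from Gins3 to Gins4. Within the clamp loader the span was 2.26-fold in ESC and 3.04-fold in EpiLC. Annotated exon length enters these spans. Orc4 has 4706 bases and Orc6 1596, and their mean levels in ESC total libraries were 88.6 and 160 CPM.

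**Figure D4:**
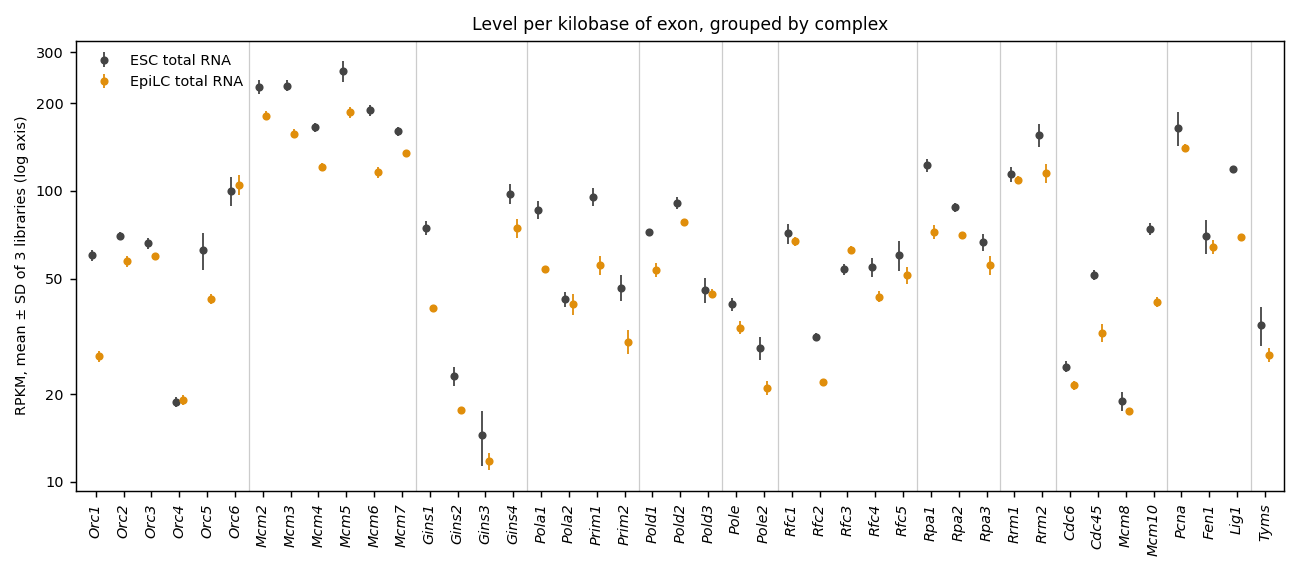
Level per kilobase of exon (RPKM, log axis) of each gene in ESC (grey) and EpiLC (orange) total RNA, as mean ± SD of 3 libraries, with vertical lines between complexes. The MCM2-7 genes lie together between 116 and 258 RPKM, while the origin recognition and GINS genes spread from 11.8 to 105 RPKM.

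Dividing total by nascent RNA gives a relative measure of mRNA stability, log2 of total over 4sU level, with no absolute unit. By this measure most replication mRNAs stood high among all genes in both cell types, and these values are a description with no test. In ESCs 38 of the 43 lay above the median of all genes tested and 25 at or above the 75th percentile. The median was 1.23, against 0.03 over all genes, which is the 81.6th percentile. In EpiLCs 37 lay above the median and 20 at or above the 75th percentile, with a median of 0.92 against 0.15 (the 72.8th percentile). None of the 43 lay below the 25th percentile in either cell type. The highest were Pold1 (3.08 ± 0.10 SE in ESC and 2.69 ± 0.11 in EpiLC), Rpa1 (2.67 ± 0.09 and 2.45 ± 0.09) and Pold2 (2.33 ± 0.11 and 2.31 ± 0.12). The lowest in ESCs were Cdc6 (−0.48 ± 0.09), Gins3 (−0.32 ± 0.16) and Orc4 (−0.14 ± 0.09), and in EpiLCs Cdc6 (−0.74 ± 0.10), Orc1 (−0.46 ± 0.08) and Orc4 (−0.32 ± 0.09). Cdc6 and Orc1, both of the loading step, stood lowest of the set in EpiLCs, at the 28.1th and 34.0th percentile of all genes.

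The change in stability, the total change minus the nascent change, was tested as an interaction. It was lower in EpiLCs for 3 of the 43 genes and higher for 0, against 1.88% of all genes tested lower and 2.72% higher (limma-voom). At an unadjusted p under 0.05 the counts were 7 lower and 1 higher (Rfc3), and here too the share over all genes was not taken. By adjusted p edgeR gave 3 lower and 0 higher, where 1.93% of all genes tested were lower and 2.88% higher. DESeq2 gave 5 lower and 0 higher, where 5.14% were lower and 2.81% higher. The median was −0.11, against 0.11 over all genes tested. Orc1 fell most (−0.60 ± 0.11, adjusted p 0.0102), from 0.15 ± 0.07 in ESCs to −0.46 ± 0.08 in EpiLCs. Mcm10 (−0.45 ± 0.11, adjusted p 0.0407) and Lig1 (−0.38 ± 0.09, adjusted p 0.0354) also passed. None of the 3 reached a change of 1, a size that 0.305% of all genes tested reached downwards and 1.24% upwards. The Orc1 call held with each of the 12 libraries left out in turn (adjusted p 0.00159 to 0.0394). The call of Mcm10 held in 2 of the 12, without ESC 4sU replicate 2 or ESC total replicate 3, and that of Lig1 in 2, without ESC 4sU replicate 3 or ESC total replicate 3. In the other 10 their adjusted p ran up to 0.104 and 0.0927.

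For 11 genes total RNA was lower and nascent RNA did not pass: Orc2, Orc5, Mcm7, Gins2, Gins4, Pold1, Pold2, Pole, Rfc4, Rpa3 and Rrm2. The difference between the assays passed for none of these 11 in the interaction test (limma-voom across all 12 libraries, no replicate block). The nearest was Rrm2 (−0.44 ± 0.13, adjusted p 0.0622), with 365, 356 and 307 CPM in ESC and 231, 266 and 262 CPM in EpiLC total libraries against 255, 300 and 283 and 264, 288 and 284 CPM in 4sU libraries. The total groups were apart and the nascent groups overlapped. Rrm2 was close to the threshold, and its call turned on the processing. It passed in 8 of 22 alternatives: DESeq2, median-of-ratios scaling, TMM within each assay, sample quality weights, both replicate blocks, and without ESC total replicate 3 or both ESC replicate 3 libraries (adjusted p 0.00224 to 0.147 over the 22). DESeq2 also called Pold1, and sample quality weights, where 6.54% of all genes tested were lower and 12.8% higher, called Orc5. The fit without both ESC replicate 3 libraries, where 6.69% of all genes tested were lower and 13.7% higher, called Mcm7 and Gins2 too.

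**Figure D5:**
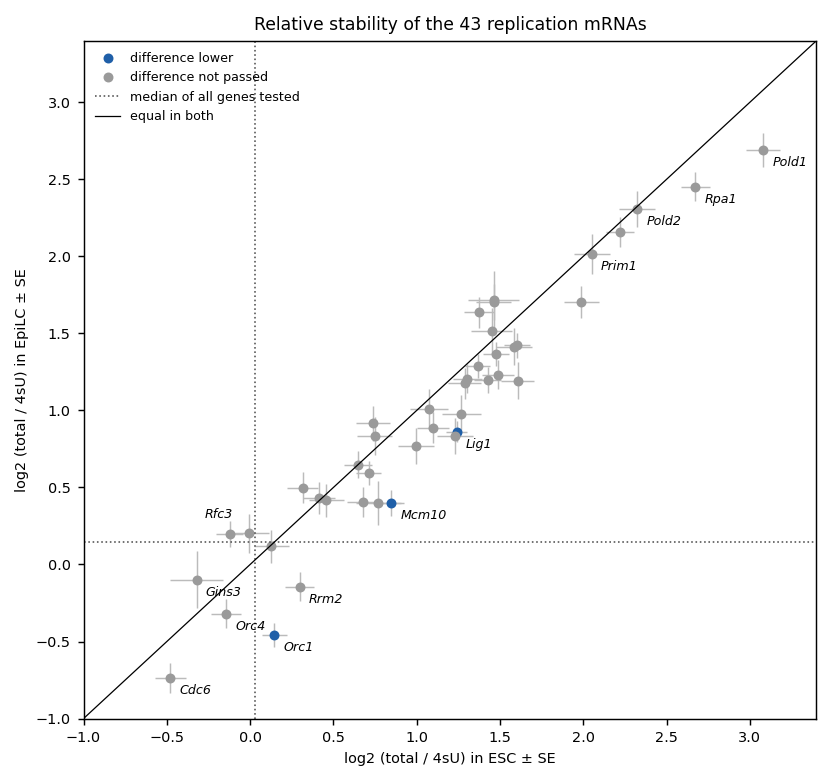
Relative stability (log2 of total over 4sU level, ± SE) of the 43 mRNAs in ESC (horizontal axis) and EpiLC (vertical axis), with dotted lines at the medians of all genes tested and a diagonal of equal values. Most points lie above and right of the dotted lines, and the 3 genes whose difference passed (Orc1, Mcm10 and Lig1, blue) lie below the diagonal.

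A further 62 genes of replication control, fork protection, chromatin assembly, nucleotide metabolism and the E2F pathway were listed by role for comparison, and all were tested. In total RNA 30 of the 62 were lower and 13 higher, with a median of −0.20, against 32.1% and 31.4% of all genes tested. In nascent RNA 16 were lower and 15 higher, with a median of −0.07, against 28.8% and 23.7%. Those with a total change over 1 on the log2 scale numbered 8 lower and 2 higher, against 11.2% and 16.3% of all genes tested. Among 12 licensing and firing regulators 7 fell and 1 rose in total RNA. Ticrr, which helps to load Cdc45 at origins, fell most, with 150, 163 and 236 CPM in ESC and 66.3, 70.2 and 70.1 CPM in EpiLC total libraries (−1.37 ± 0.13, adjusted p 5.06e-07). Its nascent RNA went from 631, 693 and 616 to 174, 163 and 159 CPM (−1.97 ± 0.13, adjusted p 3.9e-08), and the difference between the assays did not pass (adjusted p 0.0809). Among 15 fork components 8 fell and 2 rose, led by Chtf18, part of an alternative clamp loader (−1.17 ± 0.11). Among 7 genes of replication-coupled chromatin 4 fell and 1 rose, led by the histone chaperone Asf1b (−1.24 ± 0.11) and by Uhrf1, which guides maintenance DNA methylation (−1.24 ± 0.06). Among 10 genes of nucleotide metabolism 4 fell and 1 rose, with Rrm2b, the alternative small reductase subunit, at −1.11 ± 0.24.

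Of the 18 genes of E2F and RB control, 7 were lower and 8 higher in total RNA, against 32.1% and 31.4% of all genes tested. E2f1, an activator of S-phase genes, was at 29.7 ± 2.90 CPM (SD, n = 3) in ESC and 12.5 ± 1.51 CPM in EpiLC total libraries (−1.25 ± 0.15, adjusted p 5.48e-06), and its nascent RNA fell by a like amount (−1.32 ± 0.16). E2f2, another activator, fell by 1.05 ± 0.16 on the log2 scale in total RNA, and the cell-cycle inhibitor gene Cdkn1a by 1.02 ± 0.20. In the other direction, E2f7, an atypical E2F that represses E2F targets, was at 15.9 ± 4.09 CPM (SD, n = 3) in ESC and 46.7 ± 2.19 CPM in EpiLC total libraries (1.63 ± 0.12, adjusted p 3.65e-08), with a nascent rise of 1.15 ± 0.11. Rb1, the retinoblastoma repressor of E2F activators, rose in total RNA (1.18 ± 0.17), and Ccne2, a cyclin of the G1 to S transition, rose in nascent (1.02 ± 0.13) and total RNA (0.56 ± 0.13). In the stability test 5 of the 62 were lower and 0 higher, against 1.88% and 2.72% of all genes tested. The 5 were Timeless, Top2a, Uhrf1, Dnmt1 and Cdk2. Top2a, the topoisomerase of dividing cells, was higher in nascent RNA (0.36) and lower in total RNA (−0.25), and it is named here after its values were seen.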

How the data were processed

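The study measured nascent (4sU) and total RNA in mouse ESCs and EpiLCs, 3 libraries per group. The authors deposited raw read counts per gene. Per the labels and the study's methods, single-end 50 bp reads were trimmed with cutadapt 1.14 and aligned to mm10 with STAR 2.5.3a, unique alignments were kept, and featureCounts 1.5.3 counted reads by strand over exons of GENCODE M14 genes, without ribosomal RNA genes. Unique mapping makes genes with close copies uncertain. Gene symbols came from GENCODE M21.

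Counts were scaled by TMM (edgeR 4.0.16), and 14731 genes, those that reached 3 CPM in 3 or more libraries, were fitted with limma-voom (limma 3.58.1, R 4.3.3) across all 12 libraries, after the study's methods, with Benjamini-Hochberg adjustment. The stability change is the interaction of cell type and assay. CPM and RPKM values are TMM-adjusted, relative to the reads of the genes kept. Totals of 3097693 to 21975684 counts per library set the precision, and errors of counts without molecular identifiers cover counting and library spread only.

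The 43 genes, the lists and the tests were chosen with earlier results of these data known. Values of every library are given for the 5 largest falls and the rises among genes that passed in total RNA, the 4 largest nascent falls, and the 3 stability falls, with other genes as examples of their complex chosen after their values were seen. Of the other listed genes, those over 1 on the log2 scale in total or nascent RNA are named. Promoter windows to print were chosen after the results. The model scripts were tested on simulated data. As alternatives, the scaling and filter were changed, edgeR's quasi-likelihood model or DESeq2 1.42.0 replaced limma, libraries were weighted by quality, replicate blocks were added, and each library was left out. Python 3.11.15, numpy 2.4.6 and pandas 2.3.3 were used.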

Additional observations from a re-analysis of the deposited data

Results flagged for a closer look

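The change from ESC to EpiLC differed between total and nascent RNA, by the interaction test of limma-voom, for 3 of the 43 replication genes and 5 of the 62 other listed genes, each with a lower change in total RNA. Among the 43 replication genes these were Orc1 (−0.60 on the log2 scale), Mcm10 (−0.45) and Lig1 (−0.38). Among the other 62 genes they were Uhrf1 (−0.63, adjusted p 0.00503), Top2a (−0.62, adjusted p 0.00382), Cdk2 (−0.60, adjusted p 0.0201), Timeless (−0.54, adjusted p 0.0324) and Dnmt1 (−0.46, adjusted p 0.0339). In this direction 1.88% of all genes tested passed. All groups had 3 libraries, so single libraries were not tested as outliers.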

How the results depend on the processing

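The median change of the 43 genes stayed negative in all 21 alternatives for total RNA, 21 for nascent RNA and 22 for stability. With one library left out at a time, 25 to 33 genes were lower in total RNA and 0 to 1 higher (0 without EpiLC total replicate 2). Their medians were −0.35 to −0.31. Over all genes tested, 28.7% to 34.2% were lower and 28.0% to 33.4% higher in these fits. In nascent RNA 18 to 24 were lower and 0 to 1 higher (Orc4, without ESC 4sU replicate 1). Of all genes tested, 24.18% to 32.17% were lower and 20.03% to 25.93% higher in nascent RNA in these fits. In stability 1 to 4 were lower and 0 higher, against 0.793% to 5.04% and 0.834% to 8.96% of all genes tested. The total median was −0.25 on library totals and −0.41 with no expression filter, which moved the median of all genes tested from 0.02 to 0.16. With no filter 0 genes were higher in total RNA (18.3% of all genes tested), and with sample quality weights 2 were, Orc6 and Rfc3 (37.8%). Orc4 made 1 gene higher in nascent RNA with median-of-ratios scaling, TMM within each assay, DESeq2 and quality weights. There 25.4% to 26.1% of all genes tested were higher. In stability, 5 genes were lower with DESeq2 (5.14% of all genes tested) and with quality weights (6.54%). With quality weights 1 gene was higher, Rfc3 (12.8%). Without both ESC replicate 3 libraries 6 were lower (6.69%). Lig1 did not pass on library totals (adjusted p 0.0688), nor Mcm10 with no filter (adjusted p 0.0710). The causes were not tested. Between 37 and 39 genes stayed above the all-gene stability median in ESCs, and 37 or 38 in EpiLCs, under the scalings and omissions tried.

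The labels number libraries 1 to 3 in each group. Deviations of same-numbered 4sU and total libraries correlated at 0.23, 0.40 and 0.48 in ESCs and at 0.10, 0.065 and 0.024 in EpiLCs (log2 of CPM + 0.5), and not every library correlated best with its own number. The study's methods split each RNA extract between the assays, but the labels do not tie the numbers to extracts, so the numbers were not taken as pairing. With the number as a replicate block, 31 genes were lower in total RNA (Gins3 and Pcna among them, Rpa3 not), against 32.2% of all genes tested. In nascent RNA 23 were lower, against 31.0%. In stability 4 were lower, and a block per cell type and number also gave 4. In both, the fourth stability call was Rrm2 (adjusted p 0.0477 and 0.0241), beside 2.56% and 4.44% of all genes tested.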
